A study of Drosophila melanogaster with 3 samples.

Results

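The MCM sites of chromosome arm 2L were the intervals of the series-wide peak list that lay on 2L with a centre at or below 21 Mb, which gave 960 of 5726 intervals. They come from chromatin immunoprecipitation and sequencing in S2-DRSC, a male Drosophila melanogaster cell line derived from late embryos and grown as asynchronous cultures. Of 3 samples, 2 were immunoprecipitations with a mouse monoclonal antibody against the MCM2-7 complex, raised to the yeast proteins and used as a crude preparation, called replicate 1 and replicate 2, and 1 was input DNA, for which no peak list was used here. Both immunoprecipitations came from untreated cells of this line, and their labels name separate extractions without saying whether the cultures were separate. Any spread between them may therefore be technical. With 1 group of 2 samples no test across samples was possible, and the values below are descriptions. Depth is unknown because the lists hold no read counts.

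MCM2-7 is a ring of related subunits that forms the core of the replicative helicase. The origin recognition complex, with Cdc6 and Cdt1, loads it onto DNA before S phase, and it is switched on later when Cdc45 and GINS join it. Cells load far more of it than they use in any S phase, and the unused complexes act as a reserve when forks stall. An MCM peak in asynchronous cells is therefore a place of loading or passage averaged over the cycle, and not by itself a used origin.

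All positions are on 2L of FlyBase release 5.1, and neither genes nor sequence at them were analysed here. Each series interval joined overlapping peaks of both replicates. In 923 of the 960 intervals there was 1 peak from each replicate, and in all 923 the series score equalled the average of the 2 replicate scores (tolerance 1e-04). The other 37 joined more, with up to 2 replicate 1 peaks or up to 4 replicate 2 peaks in an interval. The score is the authors' own value for each peak and has no named unit. The last interval inside the limit, MCM_960 at 20953892 to 20954142, had a score of 2.86, and the first beyond it, MCM_961 at 21051860 to 21052175, had 5.47. Beyond the limit lay 56 further 2L intervals.

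The sites of 2L were short, and together they covered a small part of the arm. The median width was 209.5 bp (interquartile range 141 to 318 bp, extremes 14 and 3476 bp), and the 960 intervals covered 261633 bp or 1.25% of the 21 Mb. The median score was 3.90 (interquartile range 3.2 to 4.80, extremes 1.53 and 14). Replicate 1 alone had 1596 peaks in the same span, with medians of 136 bp for width and 3.64 for score. Replicate 2 alone had 1221, with medians of 102 bp and 3.82. Density came to 76.0 per Mb for replicate 1 and 58.1 for replicate 2 (mean 67.1 ± 12.6, SD, n = 2), against 45.7 per Mb for sites found in both.

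Set beside the first 21 Mb of 3L, 3R and X, the arm had the fewest sites of the 4, with 45.7 per Mb on 2L, against 47.5 on 3L, 49.6 on 3R and 48.5 per Mb on X. Replicate 1 had 76.0 per Mb on 2L, 79.1 on 3L, 81.4 on 3R and 82.9 on X. Replicate 2 had 58.1, 67.6, 66.7 and 77.5 in the same order, so 2L was lowest in each list. The SD between the replicates of 2L reflects unequal peak numbers in the lists and does not measure the spread of an arm difference. The same stretch of coordinates includes the centromere end of 3R but not that of the other arms. Median widths were 209.5 bp on 2L, 200 bp on 3L and on 3R, and 215 bp on X, and median scores were 3.90 on 2L, 3.72 on 3L, 3.80 on 3R and 3.72 on X. The largest site of 2L, at 3476 bp, was shorter than the largest on 3L (11100 bp) and X (12389 bp) and longer than that on 3R (2147 bp). None of these arm differences was tested.

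Most peaks of each replicate list on 2L met a peak of the other, but 630 of replicate 1 and 225 of replicate 2 did not. Of the replicate 1 peaks, 966 of 1596 (60.5%, exact 95% binomial interval 58.1 to 62.9) shared at least 1 bp with a peak of replicate 2, and over the whole genome the share was 59.8%. Of the replicate 2 peaks, 996 of 1221 (81.6%, 79.3 to 83.7) met a peak of replicate 1, with 70.3% over the whole genome. The second share was 81.6% on 2L, against 72.6% (70.2 to 74.9) on 3L, 76.9% (74.6 to 79.0) on 3R and 65.2% (62.8 to 67.5) on X. The first was 60.5% on 2L, against 60.7% on 3L, 61.4% on 3R and 59.7% on X. The intervals cover counting error only, neighbouring peaks are not independent, and the difference between arms was not tested. Replicate 2 also had the fewest peaks on 2L, with 58.1 per Mb there, 67.6 on 3L, 66.7 on 3R and 77.5 on X.

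Overlapping peaks were closely aligned and mostly nested. Among 966 pairs, the replicate 2 peak lay wholly inside its replicate 1 partner in 559 (57.9%), the reverse held in 78 (8.07%), and 329 were staggered. No pair had the same start and the same end. The centres were a median of 21 bp apart, and 763 pairs (79.0%) had centres within 50 bp, which is less than the median width of either replicate's peaks. Pairs were chosen for sharing at least 1 bp, which by itself limits how far apart the centres of such short peaks can lie. Replicate 1 had the wider peak in 773 pairs (80.0%), and the rank correlation of widths was 0.626.

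The replicates also ranked these sites alike. Spearman's rho of the paired scores was 0.777 over 966 pairs, which share the cell line, and the control of each list is not stated, so it is given as a description. On the log2 scale, replicate 1 scores over replicate 2 scores had a median ratio of -0.04 (interquartile range -0.26 to 0.18, extremes -0.99 and 1.20). In 897 pairs (92.9%) the scores were within 1.5 times of each other, and in only 2 did they differ by more than 2 times.

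**Figure D1:**
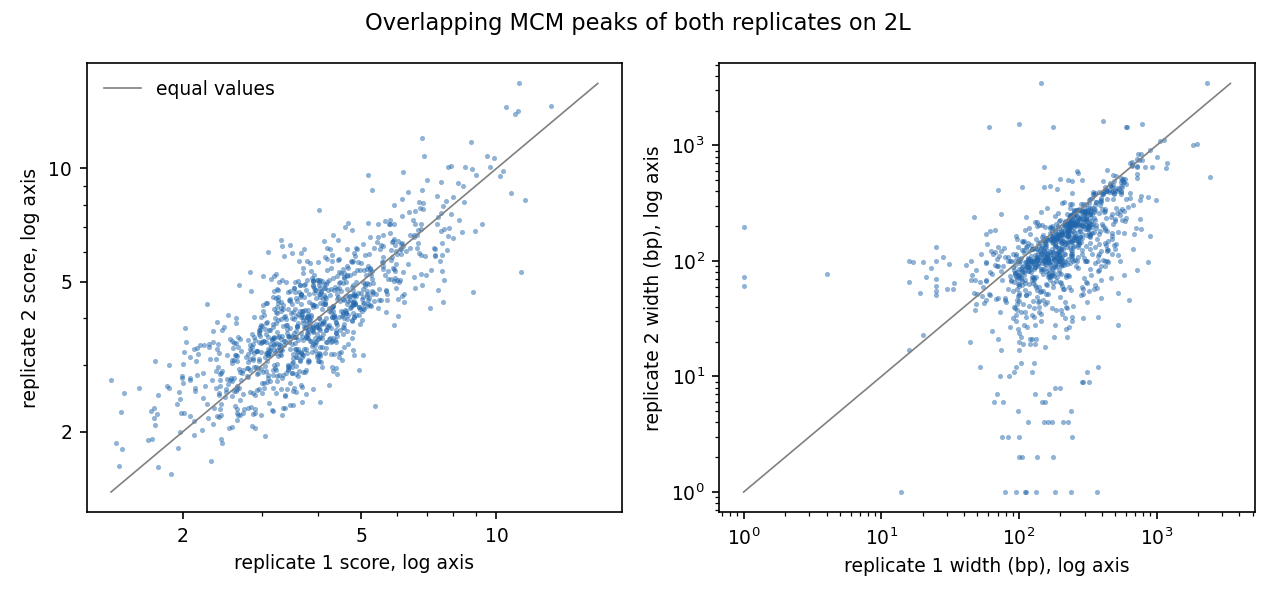
Score (left) and width in bp (right) of each of the 966 pairs of overlapping peaks on 2L, replicate 1 on the horizontal and replicate 2 on the vertical axis, both log axes, with a line of equal values. Scores lie along the line with rho = 0.777, while 80.0% of pairs lie on the side where the replicate 1 peak is wider.

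The largest disagreements were few and had no common direction. MCM_955 at 20891207 to 20891404 had a score of 5.36 in replicate 1 and 2.34 in replicate 2, where it rested on a peak of 8 bp. MCM_476 at 8958060 to 8958517 joined 2 replicate 1 peaks, scoring 11.3 and 2.83, with 1 replicate 2 peak scoring 5.31. Its ratio rests on the first of these, which has the larger overlap. The other scored below replicate 2, so the direction of the ratio depends on which peak is taken. MCM_841 at 18732655 to 18733274 had 3.09 in replicate 1 and 6 in replicate 2. The other 2 of the 5 with the highest ratios were neighbours, with centres 657 bp apart. MCM_278 at 5145480 to 5145651 had 4.02 in replicate 1 and 7.75 in replicate 2, and MCM_279 at 5146010 to 5146434 scored 3.31 and 6.45 in the same order. Replicate 2 was thus higher by about the same ratio at both, 1.93 and 1.95 times.

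Peaks called in 1 replicate alone were shorter and scored lower than the shared ones. The 630 replicate 1 peaks without a partner had a median width of 75 bp and a median score of 3.19, and the 966 with one had 199 bp and 3.82. The 225 replicate 2 peaks without a partner had 34 bp and 3.26, and the 996 with one had 122 bp and 3.96. Peaks under 50 bp made up 33.2% of the unpartnered and 3.73% of the partnered peaks in replicate 1, and 64.0% and 14.6% in replicate 2. A shorter peak also has fewer bases at which to meet another, so part of this contrast is built into the overlap rule. The unpartnered peaks were a median of 3408 bp from the nearest site of 2L in replicate 1 and 3101 bp in replicate 2, and 25.4% and 21.8% of them were within 1 kb of one.

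Most replicate peaks that scored above every site were not shared. Above the highest score of any site, 14, replicate 1 had 3 peaks, all without a partner, and replicate 2 had 10, of which 6 had none. A site score averages both replicates, so a shared peak generally passes this cutoff only if its partner scores lower. The cutoff thus favours peaks without a partner by construction. The single-list peaks named here are not all of them and were picked out after their values were seen. Each was shorter than the median peak of its list, 136 bp in replicate 1 and 102 bp in replicate 2. MCM_R2_551 was nevertheless wider than the median unpartnered peak of replicate 2, 34 bp. In replicate 1, MCM_R1_490 at 5962469 to 5962479 scored 48.7 over 11 bp, and its nearest replicate 2 peak was 8997 bp away. MCM_R1_1136 at 13500567 to 13500608 scored 20.3 over 42 bp. In replicate 2, MCM_R2_1053 at 18612376 to 18612402 scored 29.9 over 27 bp, MCM_R2_605 at 9090129 to 9090162 scored 27.8 over 34 bp, and MCM_R2_551 at 8088282 to 8088373 scored 21.5 over 92 bp.

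Over all 960 sites, numbers were lower toward the centromere, but among the higher-scoring 480 they were nearly even. Between 0 and 7 Mb there were 369 sites (52.7 per Mb), between 7 and 14 Mb 316 (45.1) and between 14 and 21 Mb 275 (39.3). Both replicates had the same order, at 86.1, 81.1 and 60.7 per Mb for replicate 1 and 68.1, 56.7 and 49.6 for replicate 2. The first 7 Mb still had 48.4 sites per Mb without the window at 0.4 to 0.6 Mb, a comparison chosen after the data were seen. The 480 higher-scoring sites numbered 163, 164 and 153 in the 3 parts, so the first 7 Mb held 34.0% of them, against 38.4% of all sites. Scores ran slightly the other way, with medians of 3.78, 3.96 and 4.01, and widths showed no trend, at 221, 204.5 and 217 bp. Across the 960 sites the rank correlation with position was 0.09 for score and -0.01 for width.

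Single megabases departed widely from this order. The first megabase held 73 sites, with 113 replicate 1 and 96 replicate 2 peaks. The 17 to 18 Mb interval held 20, with 31 and 30, and the 14 to 15 Mb interval held 23, with 32 and 28. Between these last, 16 to 17 Mb held 58 sites, with 93 and 69 peaks, as many as 2 to 3 Mb or 6 to 7 Mb. The 11 to 12 Mb interval was also sparse, with 27 sites and 47 and 38 peaks.

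At the scale of 200 kb most windows held a middling number of sites, with 37 at 5 to 9 and 28 at 10 to 14. Over 105 windows the median was 8 sites (interquartile range 5 to 12), the variance was 4.13 times the mean, and the 10 fullest windows (9.52% of them) held 23.0% of the sites. At the other end, 24 windows with 4 sites or fewer held 6.15% of them. The variance was 5.22 times the mean in replicate 1 and 5.80 times in replicate 2. On the other arms the value for sites was 3.73 (3L), 3.13 (3R) and 4.82 (X). The replicates put their peaks in the same windows, with a rank correlation of counts of 0.924 over the 105 windows, which share the map and any common control. Replicate 1 had more peaks in 83 windows, replicate 2 in 13, and 9 were equal.

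**Figure D2:**
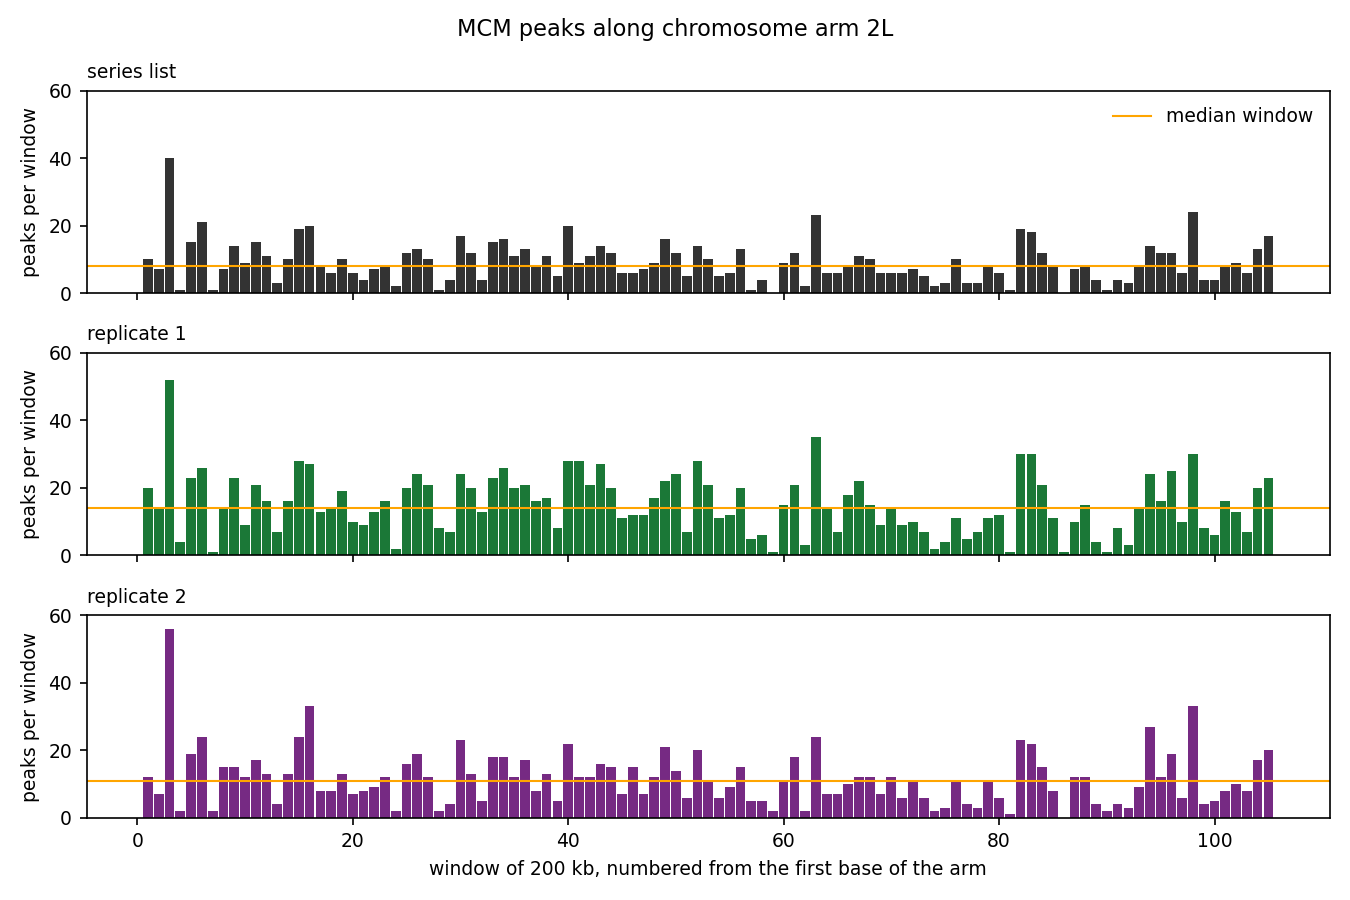
Number of peaks in each of the 105 windows of 200 kb along 2L, for the series list (top), replicate 1 (middle) and replicate 2 (bottom), with an orange line at the median window. The third window holds 40, 52 and 56 peaks in the 3 lists and is the fullest in each.

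The fullest window in all 3 lists was the one at 0.4 to 0.6 Mb, with 40 sites, 52 replicate 1 peaks and 56 replicate 2 peaks. Merging sites less than 1 kb apart left 20 sites in it. With the 200 kb windows moved by 100 kb, the fullest was 0.3 to 0.5 Mb with 27 sites. Next came 19.4 to 19.6 Mb with 24 sites (30 and 33 peaks in replicates 1 and 2), 12.4 to 12.6 Mb with 23 (35 and 24) and 1 to 1.2 Mb with 21 (26 and 24). The windows at 3 to 3.2 Mb and 7.8 to 8 Mb followed with 20 sites each, on 27 and 33 peaks in the first and 28 and 22 in the second. In replicate 1 the windows at 16.2 to 16.4 and 16.4 to 16.6 Mb also ranked among the first 5, with 30 peaks each, and held 19 and 18 sites. In replicate 2 the window at 18.6 to 18.8 Mb came next after those at 0.4, 3 and 19.4 Mb, with 27 peaks, and held 14 sites and 24 replicate 1 peaks. The order changed when lower-scoring sites were left out. Among the 480 higher-scoring sites the fullest window was 19.4 to 19.6 Mb with 13, and 0.4 to 0.6 Mb had 11.

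The zone at 0.4 to 0.6 Mb was a packed core with looser flanks. Its 40 sites ran from 403708 to 564160, and the 20 kb between 480 and 500 kb held 15 of them, on 18 replicate 1 and 20 replicate 2 peaks. The last 20 kb, from 580 kb on, held none in any list. Sites in the zone were wider than elsewhere, with a median of 273 bp (interquartile range 168 to 539 bp) against 206.5 bp (141 to 313 bp) over the other 920 sites. The extra width lay mostly in the core from MCM_29 to MCM_47, where the median was 500 bp. At least 500 bp was reached by 13 of the 40 (32.5%), against 82 of the 920 (8.91%). Scores were lower, with a median of 3.22 (2.61 to 3.94) against 3.93 (3.22 to 4.85). The direction was the same in each replicate, at 2.98 against 3.90 in replicate 1 and 3.53 against 3.99 in replicate 2.

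The zone, mainly through its core, differed from the rest of the arm in which replicate had the wider peak. In the zone, the median peak was 214 bp in replicate 1 and 248 bp in replicate 2, and replicate 2 was wider at 25 of 40 sites (62.5%). In the core, from MCM_29 to MCM_47, replicate 2 was wider at every site but MCM_39. Elsewhere in the zone replicate 2 was wider only at MCM_23, MCM_24, MCM_48 to MCM_51 and MCM_54. Over the other 920 sites, the medians were 200 bp in replicate 1 and 122 bp in replicate 2, and replicate 2 was wider at 160 (17.4%). Where a site joined several peaks of a replicate, only the peak sharing most bases with the site was measured. Several replicate 2 peaks were joined at 1 site of the zone and 31 of the others. Several replicate 1 peaks were joined at 4 sites of the zone and 2 of the others. Peaks of the zone covered 14505 bp in replicate 1 and 20481 bp in replicate 2, although over the whole span replicate 1 covered 297952 bp and replicate 2 184025 bp. Replicate 2 also scored higher at 34 of the 40 sites (85.0%), against 492 of the 920 (53.5%), with median log2 ratios of replicate 1 over replicate 2 of -0.22 and -0.03. Among 81 windows with at least 5 sites, the median replicate 2 peak was the wider in only 3, of which the others were at 10.6 to 10.8 Mb with 5 sites and at 13.2 to 13.4 Mb with 11. The score ratio was less unusual, since 6 of the 81 windows, this one included, had a ratio as low or lower. Of the replicate 1 peaks in the zone, 44 of 52 (84.6%, exact interval 71.9 to 93.1) had a partner, against 60.5% over the span. In replicate 2 the share was 41 of 56 (73.2%, 59.7 to 84.2), against 81.6%. Each site needs a peak of both replicates, so a window picked out by its many sites favours partnered peaks. Wider peaks also meet more readily, and these differences from the span were not tested.

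**Figure D3:**
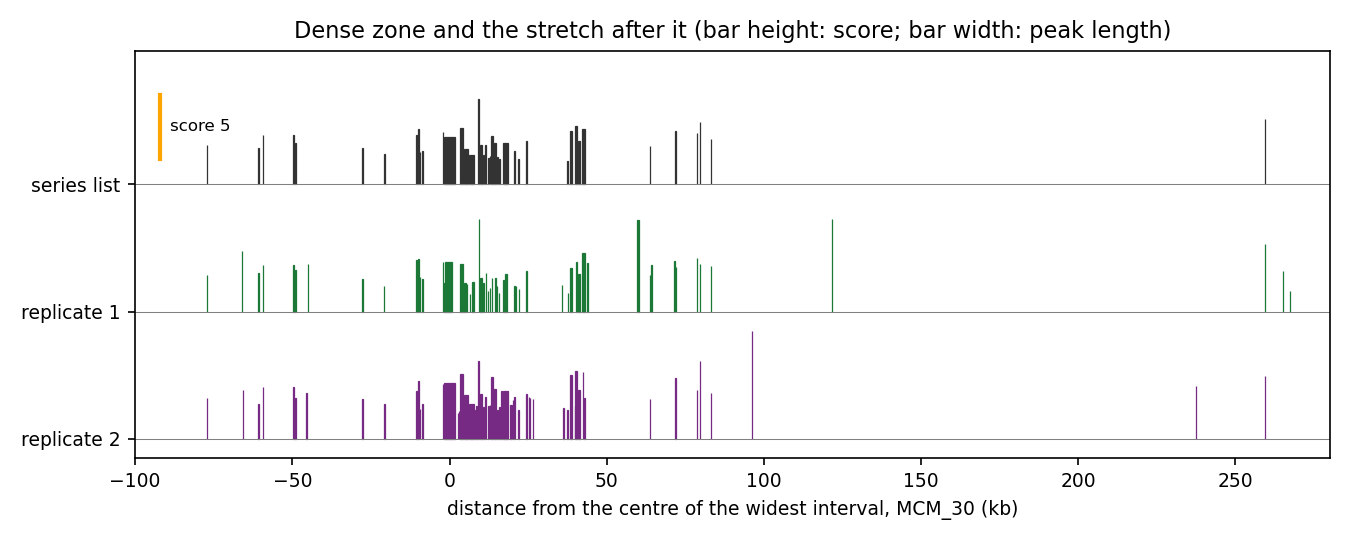
Peaks of the series list, replicate 1 and replicate 2 around the dense zone, by distance in kb from the centre of MCM_30, the widest site of the arm. Bar width is peak length and bar height is the score, with an orange bar for a score of 5. Peaks crowd the stretch just right of MCM_30, where replicate 2 fills more of the sequence than replicate 1, and then thin out into a stretch with no site.

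The core of the zone was the longest chain of sites on the arm, counting neighbours with centres at most 5 kb apart. It ran over 19 sites, MCM_29 to MCM_47, from 478762 to 505634, and its intervals filled 51.7% of those 26873 bp. It was made of 24 replicate 1 and 26 replicate 2 peaks, with a median width of 500 bp and scores between 1.99 and 6.70. Its widest member, MCM_30 at 479115 to 482590, was also the widest site of the arm. It spanned 3476 bp, on 1 replicate 2 peak of 3442 bp scoring 4.37 and on 2 replicate 1 peaks, the longer of which was 2313 bp and scored 3.88. Its highest-scoring member, MCM_34 at 489893 to 490387, scored 7.29 in replicate 1 and 6.11 in replicate 2. The next highest scores of the zone were those of MCM_56 at 560379 to 560443 (4.92), MCM_50 at 520917 to 521433 (4.60), MCM_31 at 484242 to 485076 (4.42) and MCM_26 at 470827 to 471189 (4.35).

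Other chains were much shorter. The second was MCM_303 to MCM_310 at 5977352 to 5987299, with 8 sites on 10 replicate 1 and 9 replicate 2 peaks, which filled 40.1% of 9948 bp and had scores of 2.75 to 4.03. The third was MCM_893 to MCM_899 at 19571937 to 19587516, with 7 sites on 8 and 10 peaks that filled 21.5% of 15580 bp. Of the 6 chains of 6 sites, the longest were MCM_247 to MCM_252 at 4444526 to 4458921 and MCM_282 to MCM_287 at 5292892 to 5306977. In all, 379 sites (39.5%) had no neighbour within 5 kb, 260 formed pairs, and 321 (33.4%) stood in 79 chains of 3 or more.

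Per doubling of distance, neighbouring sites 1 to 2 kb apart were somewhat fewer than those just below or above that range. The median distance between centres was 7832 bp (interquartile range 2154 to 23774 bp), and 79.2% of sites had another within 10 kb. Of 959 distances, 119 were between 0.5 and 1 kb, 89 between 1 and 2 kb, 142 between 2 and 5 kb and 166 between 5 and 10 kb. Per doubling of distance these are 119, 89, 107 and 166, with a low between 1 and 2 kb. Replicate 1 had 266, 172, 216 and 263 per doubling over the same ranges, and replicate 2 had 169, 131, 155 and 188. Without the window at 0.4 to 0.6 Mb the sites had 105, 81, 103 and 161, again lowest between 1 and 2 kb. No 2 neighbouring peaks of the same replicate list were less than 200 bp apart from edge to edge, in either list. Shorter gaps between called peaks are thus not represented in these distances. How far this floor shapes the count at 0.5 to 1 kb was not tested. Distances under 1 kb made up 14.7% on 2L, 12.9% on 3L, 13.8% on 3R and 13.7% on X.

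**Figure D4:**
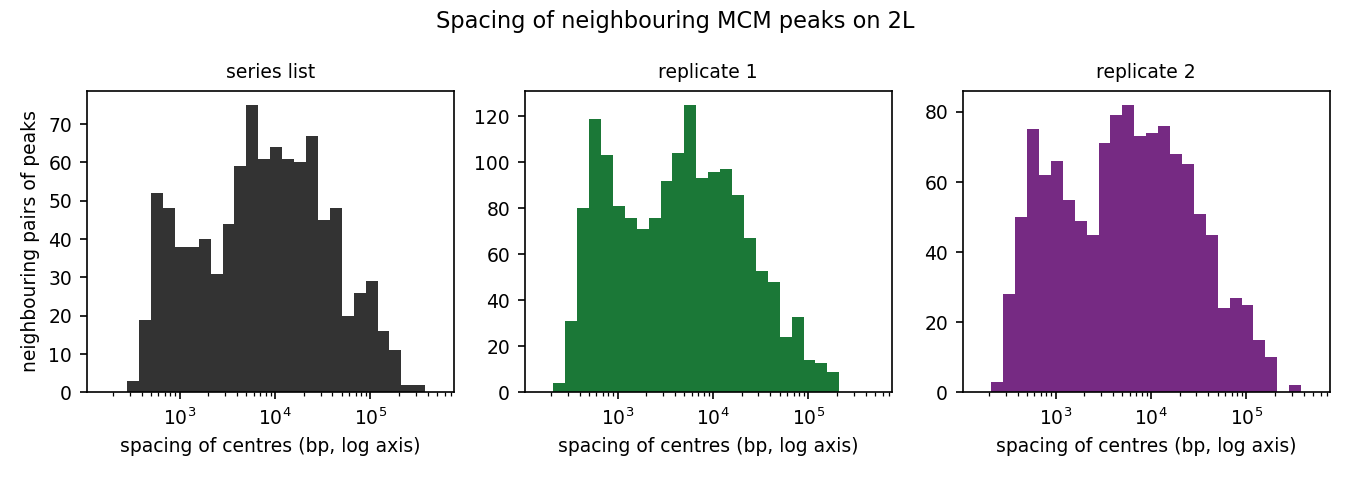
Distances between the centres of neighbouring peaks on 2L in bp (log axis) for the series list, replicate 1 and replicate 2; the height is the number of neighbouring pairs, on a separate scale in each panel. Each list has a mode between 0.5 and 1 kb, a low above 1 kb and a broad mode from about 5 kb up.

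Much of the span lay in long stretches with no site. There were 106 of over 50 kb, which made up 54.8% of the 21 Mb, and 51 of over 100 kb, which made up 35.6%. In the replicate lists alone, stretches of over 50 kb numbered 93 and made up 41.7% in replicate 1, and numbered 103 and made up 50.3% in replicate 2. The first site began after 66807 bp. The longest stretch ran from 16889329 to 17243184, 353856 bp in all, and held 2 replicate 1 peaks with a median width of 18 bp and 1 replicate 2 peak of 2 bp. The second, 5403832 to 5724017 (320186 bp), held 9 replicate 1 peaks with a median score of 3.11 and 1 replicate 2 peak of 8 bp. The third, 11528305 to 11806310 (278006 bp), held 1 replicate 1 peak of 90 bp and 2 replicate 2 peaks. A stretch with no site can hold only peaks without a partner, so a low count in it is partly built in. The second held more replicate 1 peaks than the first or the third.

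The next 4 stretches were all over 200 kb. The stretch at 15275121 to 15498858 (223738 bp) held 4 replicate 1 peaks and 1 replicate 2 peak, and so did that at 4458922 to 4661057 (202136 bp). Those at 12133790 to 12341797 (208008 bp) and 16049844 to 16251611 (201768 bp) held 1 replicate 1 peak each and no replicate 2 peak. The stretch at 1184061 to 1362342 (178282 bp) held 2 replicate 1 peaks and none of replicate 2. The stretch at 17784933 to 17963169 (178237 bp) held no peak of either list, and it began right after MCM_815, which scored 9.93. The stretch at 564161 to 740174 (176014 bp) directly followed the dense zone, and held 1 replicate 1 peak scoring 7.25 and 2 replicate 2 peaks with a median score of 6.33.

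The 10 stretches together made up 11.0% of the span and held 25 replicate 1 peaks (1.57% of that list) and 8 replicate 2 peaks (0.655%). Their replicate 1 peaks had a median width of 65 bp and their replicate 2 peaks one of 20 bp. By definition none of these peaks overlapped one of the other replicate. Only unpartnered peaks could lie there, and the stretches held 25 of the 630 in replicate 1 over the span and 8 of the 225 in replicate 2. The shares of the whole lists are therefore low by construction and do not compare with the 11.0% of the span. Taken alone, replicate 1 had its longest empty stretch at 11608193 to 11806329 (198137 bp), and replicate 2 at 16889274 to 17240755 (351482 bp). Only 2 windows of 200 kb had no site. The window at 11.6 to 11.8 Mb had 1 replicate 1 and 2 replicate 2 peaks, and the window at 17 to 17.2 Mb had 1 replicate 1 peak and none of replicate 2. The longest stretch without a site was 353856 bp on 2L, 331714 bp on 3L, 259231 bp on 3R and 368956 bp on X. How uniquely reads can be placed in these stretches was not measured here.

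Solitary sites had somewhat higher scores than crowded ones. The 45 sites over 30 kb from any other had a median score of 4.42 (interquartile range 3.69 to 5.91) and a median width of 174 bp, and the 249 sites within 1 kb of another had 3.80 (3.10 to 4.57) and 224 bp. The ranges overlapped widely, and the rank correlation of score with distance to the nearest site was 0.11 over the 960 sites. In the replicate lists, each with its own neighbours, the corresponding median scores were 3.69 and 3.54 in replicate 1 and 4.25 and 3.70 in replicate 2, so the contrast was small in replicate 1. The corresponding median widths were 119.5 and 145 bp in replicate 1 and 104 and 107 bp in replicate 2, and the rank correlation of width with distance was -0.10 over the sites, -0.02 in replicate 1 and -0.03 in replicate 2. By window, sites in windows of 4 or fewer had a median of 4.49, those in windows of 5 to 9, 10 to 14 and 15 to 24 had 4.01, 3.98 and 3.75, and those of the dense zone had 3.22. The same order held for the replicate 1 and replicate 2 scores of these sites, with 4.42, 3.97, 3.90, 3.68 and 2.98 in replicate 1 and 4.51, 4.10, 4.03, 3.70 and 3.53 in replicate 2. The median for solitary and for crowded sites was 4.42 and 3.80 on 2L, 4.30 and 3.56 on 3L, 4.12 and 3.71 on 3R, and 4.17 and 3.48 on X.

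**Figure D5:**
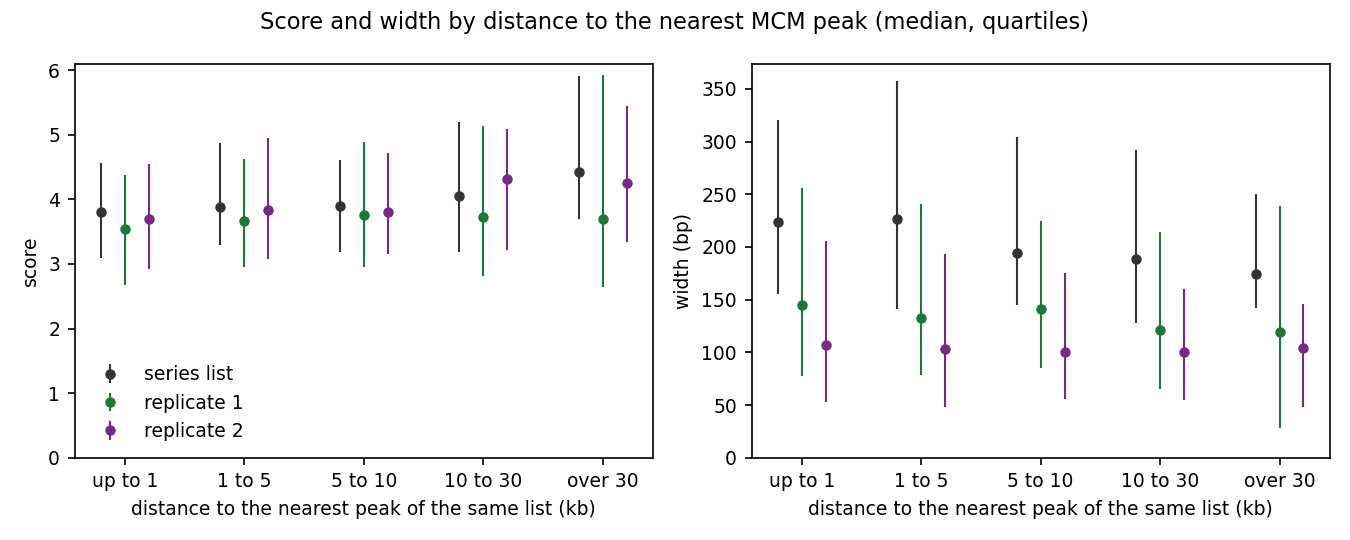
Score (left) and width in bp (right) of peaks on 2L by distance in kb to the nearest peak of the same list; points are medians and bars run from the lower to the upper quartile. In the series list the median score is 3.80 up to 1 kb and 4.42 over 30 kb, and the quartile bars of all classes overlap.

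The strongest sites were narrow and lay mainly in the part of the span nearer the centromere. The 10 with the highest scores were 87 to 212 bp wide and scored 9.93 to 14, and 9 of them lay beyond 10.5 Mb, where 42.5% of all sites were. Their median distance to the nearest site was 12970 bp, against 3208 bp over all sites, and 6 had no other within 10 kb. The replicate scores were within 1.5 times of each other in 9 of the 10. The highest was MCM_842 at 18776716 to 18776812, with 11.2 in replicate 1 and 16.8 in replicate 2. The second, MCM_254 at 4726147 to 4726291, had 13.2 in replicate 1 and 14.6 in replicate 2. It was 65094 bp from the nearest site, and it was the only one of the 10 before 10.5 Mb.

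The next strongest sites all lay in the stretch from 10 to 18 Mb. MCM_717 at 15096880 to 15096966 had 11.2 in replicate 1 and 14.2 in replicate 2, and MCM_707 at 14972990 to 14973101 scored 10.5 and 14.6 in that order. MCM_565 at 10964541 to 10964736 scored 11.0 and 14, and MCM_767 at 16507789 to 16507885 scored 8.76 and 11.8. Replicate 2 was the higher at the first 8 of the 10, which also include MCM_595 at 11948585 to 11948774 (9.87 and 10.7) and MCM_724 at 15504682 to 15504802 (9.50 and 10.8). At MCM_799 at 17368625 to 17368809 (10.3 and 9.83) and MCM_815 at 17784721 to 17784932 (11.6 and 8.25) replicate 1 was higher. MCM_707, MCM_717 and MCM_724 lay between 14 and 16 Mb, a part of the arm that was sparse by megabase. The 200 kb windows of MCM_707 and MCM_724 held 3 sites each, but that of MCM_717 held 10.

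None of the 5 widest sites was among the 10 with the highest scores. After MCM_30 came MCM_600 at 12010192 to 12012645 (2454 bp), MCM_895 at 19575008 to 19577035 (2028 bp), MCM_193 at 3057885 to 3059747 (1863 bp) and MCM_596 at 12002997 to 12004828 (1832 bp). Each had another site within 5 kb, as did 60.5% of all sites. MCM_600, MCM_895 and MCM_596 were each whole in replicate 1 and split in replicate 2, into 4, 3 and 2 peaks. MCM_600 and MCM_596 stood close together. Their scores of 5.09 and 5.36 were above the median of the arm, while MCM_895 (2.79) and MCM_193 (2.89) were below it. Over all sites width and score were unrelated in rank (rho = -0.02), and in the replicate lists rho was 0.24 in replicate 1 and 0.11 in replicate 2.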

How the data were processed

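The deposited files were 1 peak list per immunoprecipitation and 1 list of the whole series. Per the file headers the genome build is FlyBase release 5.1, and the lists name PeakSeq as the caller. The score of each peak is a value deposited by the authors without a named unit. The sources used here name no aligner, caller setting, control or threshold. Peaks were called per sample, and the series list joins overlapping peaks, as checked on positions. The annotation in hand was of release 6, so no gene or sequence was read.

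Sites were taken on 2L by peak centre up to 21 Mb. Overlap meant at least 1 bp shared, with partners anywhere on the arm. Windows of 200 kb tiled the span, and chains joined centres at most 5 kb apart. Binomial 95% intervals for shares are exact (Clopper-Pearson), with counting error as their only source. Named regions were the 10 highest scores, 5 widest, 5 largest replicate ratios, 5 densest windows per list, 5 longest chains, 10 longest stretches, empty windows, and the 5 strongest sites and the widest one at 0.4 to 0.6 Mb. The members, lists and measures were chosen with earlier results of these data known. The code was tested on simulated data. Computation used SciPy 1.17.1, pandas 2.3.3, NumPy 2.4.6 and matplotlib 3.10.9 under Python 3.11.15.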

Additional observations from a re-analysis of the deposited data

How the results depend on the processing

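Of 66 alternative values over 11 results, 35 stayed within the spread between the replicates, the counting interval, 1.5 times a count or 0.05 of a rank correlation. These include fullest-window counts of 27 with windows moved by 100 kb, 27 with 100 kb windows and 44 with 500 kb windows. Counts from windows of another size do not compare directly with one of 200 kb. Using 1 replicate list alone gave 58.1 to 76.0 peaks per Mb, a median spacing of 4395 to 5456 bp, a longest stretch of 198137 to 351482 bp, a median width of 102 to 136 bp, a median score of 3.64 to 3.82 and 83 to 87.6% of peaks with a neighbour within 10 kb. Keeping the 480 higher-scoring sites gave 22.9 sites per Mb, 13 in the fullest window, a spacing of 22437 bp, a score of 4.80, 56.5% with a neighbour and 34.0% of sites in the first 7 Mb (38.4% as reported). Keeping the higher-scoring 50% of each replicate list gave shared percentages of 54.7 and 73.2 for replicates 1 and 2 and rho = 0.618. Merging sites less than 1 kb apart gave 20 in the fullest window, a spacing of 11846 bp, a width of 235 bp, 68.6% with a neighbour and 36.3% in the first 7 Mb, and the whole arm also gave 36.3%. Neighbours within 5 or 20 kb gave 60.5 and 89.5%. Centres within 500 bp gave shared percentages of 68.1 and 87.8, and peaks of at least 50 bp gave 88.1 for replicate 2. Leaving out 0.4 to 0.6 Mb, an alternative chosen after seeing the data, left 24 sites in the fullest window and 35.8% in the first 7 Mb. The higher-scoring part and the merged list hold fewer sites by construction, and for the other values the cause was not tested. Depth is unknown and limits what a missing peak can show.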
